A study of Mus musculus with 8 samples.

Results

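The genes described here are the SNARE, syntaxin-binding and synaptotagmin genes of SN4741 cells, the proteins of which carry out and control the fusion of vesicles with membranes. They were chosen by name alone, as every gene symbol in the deposited tables that starts with Syt, Stx, Stxbp, Vamp or Snap followed by a number, and this gave 51 of 31053 genes. By their known roles, 19 were placed in a list of neuronal exocytosis genes and 20 in a list of general trafficking genes. The other 12 were placed in neither list because their role is mixed or restricted to other tissues. These lists were made with earlier results of these data known. Transcripts were counted by single-cell RNA-seq in 8 libraries, 4 from cultures at 37°C in 10% serum and 4 from cultures moved to 39°C in 0.5% serum for 48 hours. SN4741, labelled as genotype WT and described as clonal, is a mouse line from the embryonic substantia nigra of transgenic mice, immortalized by a temperature-sensitive viral T antigen driven by a tyrosine hydroxylase promoter, with an unstable and abnormal karyotype. Both temperatures share the T antigen transgene, and the effects of temperature and serum cannot be told apart in any comparison here.

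Membrane fusion is driven by SNARE proteins that zip together from opposite membranes. A vesicle SNARE such as a VAMP pairs with a syntaxin and a SNAP protein on the target membrane, and Munc18-type proteins, encoded by Stxbp genes, bind the syntaxin and guide assembly. Synaptotagmins are membrane proteins with C2 domains, several of which bind calcium and trigger release. Neurons use a dedicated set at the synapse, with Snap25, Stx1a, Vamp2 and Syt1 among them, while all cells need other members for traffic between the endoplasmic reticulum, Golgi, endosomes, lysosomes and plasma membrane.

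After filtering, 18351 of 19125 cells were kept, with 17166686 to 29633818 unique molecular identifiers (UMIs, each a captured transcript molecule) per library. Levels of genes are given as counts per 1000000 UMIs (CPM) after scaling with TMM factors, or as plain CPM of all UMIs of a library or temperature where so stated, and since the 3' assay counts each molecule at its end they need no correction for transcript length. Of the 9 neural precursor markers, 5 were measured. Nes, Sox2, Vim and Notch1 among them had mean levels between 55.4 and 5396 CPM at 37°C. Sox1, Pax6, Hes5 and Fabp7 had 0 to 3 UMIs at each temperature, so the label of neural precursor cells was met only in part. Of the 11 neuronal markers, 7 were measured, while Dcx and Elavl4 had 0 UMIs at both temperatures. The summed level of the 11 neuronal markers was 168 to 198 plain CPM at 37°C and 84.2 to 102 at 39°C. Col1a1, a collagen gene on the mesenchymal marker list, had levels of 1027 CPM (37°C) and 575 CPM (39°C). Of the 8 glial markers, 3 were measured, while the factors Olig1, Olig2 and Sox10 had 0 UMIs. The mean summed level of the 8 was 4.25 plain CPM at 37°C and 6.06 at 39°C. Cells called G1 made up 20.6 to 28.7% of those at 37°C and 82.5 to 85.4% of those at 39°C, so each comparison of temperatures was made in all cells and again in G1 cells. The replicates are described as cultured at their temperature, with no word on whether each was started separately, and p-values then measure only the spread between these libraries.

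Part of the neuronal release machinery, with Snap25 and Syt1, was not detected or was close to the limit of detection at both temperatures. Vamp2 (2688 and 3793 UMIs at 37°C and 39°C) and Stx1a (215 and 287) were measured. Of the 19 neuronal exocytosis genes, 10 had a mean under 1 UMI per library, against 0 of 20 general trafficking genes. Of all 31053 genes, 15810 had a mean of at least 1, a share near that of the neuronal list and lower than that of the general list. Snap25, the plasma membrane SNARE of synapses, had 0 UMIs at 37°C and 1 at 39°C. Stxbp5l, a tomosyn, had 0 and 1. The calcium sensors of fast release were as rare, with 4 and 3 UMIs of Syt1 and 4 and 2 of Syt2. Syt3 had 3 UMIs at each temperature. No UMI of Syt4, Syt5, Syt9 or Syt10 was found in 113220605 UMIs at 37°C or 97313978 UMIs at 39°C, which at a limit of 3 counts allows a level of up to 0.0265 and 0.0308 plain CPM. Among genes of neither list, Syt15 had 2 and 5 UMIs and Syt16 had 0 and 1. For Syt1 the exact 95% Poisson interval was 0.00963 to 0.0905 plain CPM at 37°C and 0.00636 to 0.0901 at 39°C, and such intervals and limits cover counting error only. Syt6, with 5 and 3 UMIs, barely entered the test and is not distinguishable from these genes.

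The DNA before the start sites is shown for 4 members that span this contrast, the general SNARE Snap23, the measured neuronal syntaxin Stx1a and the undetected or nearly undetected Syt10 and Syt1. Each line holds the 250 bases before the start of the gene in RefSeq's GRCm38.p6 table, 5′ to 3′ on the strand of the gene, with CpG dinucleotides in capitals.
Snap23, chr2:120567421-120567670, plus strand: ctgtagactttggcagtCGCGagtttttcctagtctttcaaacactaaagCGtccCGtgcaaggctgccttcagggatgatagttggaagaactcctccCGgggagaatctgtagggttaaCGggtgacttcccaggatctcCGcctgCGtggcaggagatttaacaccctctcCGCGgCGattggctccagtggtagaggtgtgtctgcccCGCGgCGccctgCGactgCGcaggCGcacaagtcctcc
Stx1a, chr5:135023232-135023481, plus strand: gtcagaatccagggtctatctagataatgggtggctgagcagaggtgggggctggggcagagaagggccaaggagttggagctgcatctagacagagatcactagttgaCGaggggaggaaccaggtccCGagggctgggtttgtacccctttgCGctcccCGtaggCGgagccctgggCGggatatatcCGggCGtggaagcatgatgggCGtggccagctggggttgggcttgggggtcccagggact
Syt10, chr15:89841861-89842110, minus strand: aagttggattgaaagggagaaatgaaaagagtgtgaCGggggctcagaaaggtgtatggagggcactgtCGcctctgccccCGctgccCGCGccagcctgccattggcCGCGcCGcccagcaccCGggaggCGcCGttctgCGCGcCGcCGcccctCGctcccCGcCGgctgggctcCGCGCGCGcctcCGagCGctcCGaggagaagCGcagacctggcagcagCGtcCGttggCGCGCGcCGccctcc
Syt1, chr10:109010976-109011225, minus strand: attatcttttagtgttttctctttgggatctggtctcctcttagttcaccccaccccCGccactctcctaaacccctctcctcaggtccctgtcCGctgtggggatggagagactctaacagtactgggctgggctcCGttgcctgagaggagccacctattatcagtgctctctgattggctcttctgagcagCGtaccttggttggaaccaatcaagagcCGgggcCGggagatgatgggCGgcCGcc

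The stretch before Snap23 held 17 CpG and that before Stx1a 9, while those before Syt10 and Syt1 held 32 and 8. Of these 4, which were picked after their values were seen, Syt10 with 0 UMIs had the most CpG. Over windows from 250 bases before to 50 after the start, entries were found for 39 members, and a window was called CpG-rich at a GC content of at least 50% and an observed to expected CpG ratio of at least 0.6. A gene with several windows was counted if any of them was CpG-rich or, below, held the motif. By this measure 29 of the 39 were CpG-rich, against 36.0% of 27025 genes with a window. The 29 were 25 of 31 measured members and 4 of 8 under the count minimum. Among neuronal exocytosis genes this held for 5 of 5 that were measured and 3 of 6 under the count minimum, and among general trafficking genes for 15 of 18. The 5 include Stx1a, with a ratio of 0.42 in the 250 bases printed above and 0.635 in the full window. They also include Syt6, with 5 and 3 UMIs in all, and no window was found for Vamp2, Syt12, Syt13 and Snap25. The neuronal shares thus rest on few genes and on where the count minimum lies. The RE1 site bound by the repressor REST, searched as TTCAGCACCNNGGACAGNGCC on both strands, matched in 0 of 39 members and in 0.0037% of all genes. Its parts TTCAGCACC and GGACAGNGCC, which overlap the full site, also matched in 0 of 39 members and in 0.433% and 0.614% of genes. Of the other motifs searched on both strands, the GC box GGGCGG matched in 30 of 39 members and 38.2% of genes, CCAAT in 14 and 41.1%, TGACGTCA in 1 (Stxbp3) and 2.03%, and the CLEAR motif of lysosomal genes in 0 and 0.37%. A match is looked for only in these short windows, and its absence there says nothing about REST at these genes.

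The measured members formed a general trafficking set at moderate levels with a few neuronal genes beside it. The highest mean levels over all libraries were those of Vamp8, an endosomal SNARE, Vamp5, a VAMP known from muscle, Snap47, Stx16 of the trans-Golgi network, Stx5a of the Golgi and Stx8 of endosomes. For Vamp8 the mean was 92.6 ± 3.06 CPM in 37°C libraries and 82.0 ± 4.79 CPM in 39°C libraries (SD, n = 4 each, as for all ± values of levels), and for Vamp5 it was 85.9 ± 4.63 and 95.1 ± 7.54 CPM. In the neuronal list Vamp2 was at 24.0 CPM and Stxbp5 at 14.3 CPM at 37°C, while Syt12, Stx1a, Vamp1, Syt13, Snap91 and Syt6 were under 10 CPM at both temperatures. Neuronal exocytosis genes supplied 7.58 to 8.30% of the UMIs of all 51 members at 37°C and 7.89 to 8.65% at 39°C, and general trafficking genes 78.6 to 79.8% and 77.0 to 79.2%.

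**Figure D1:**
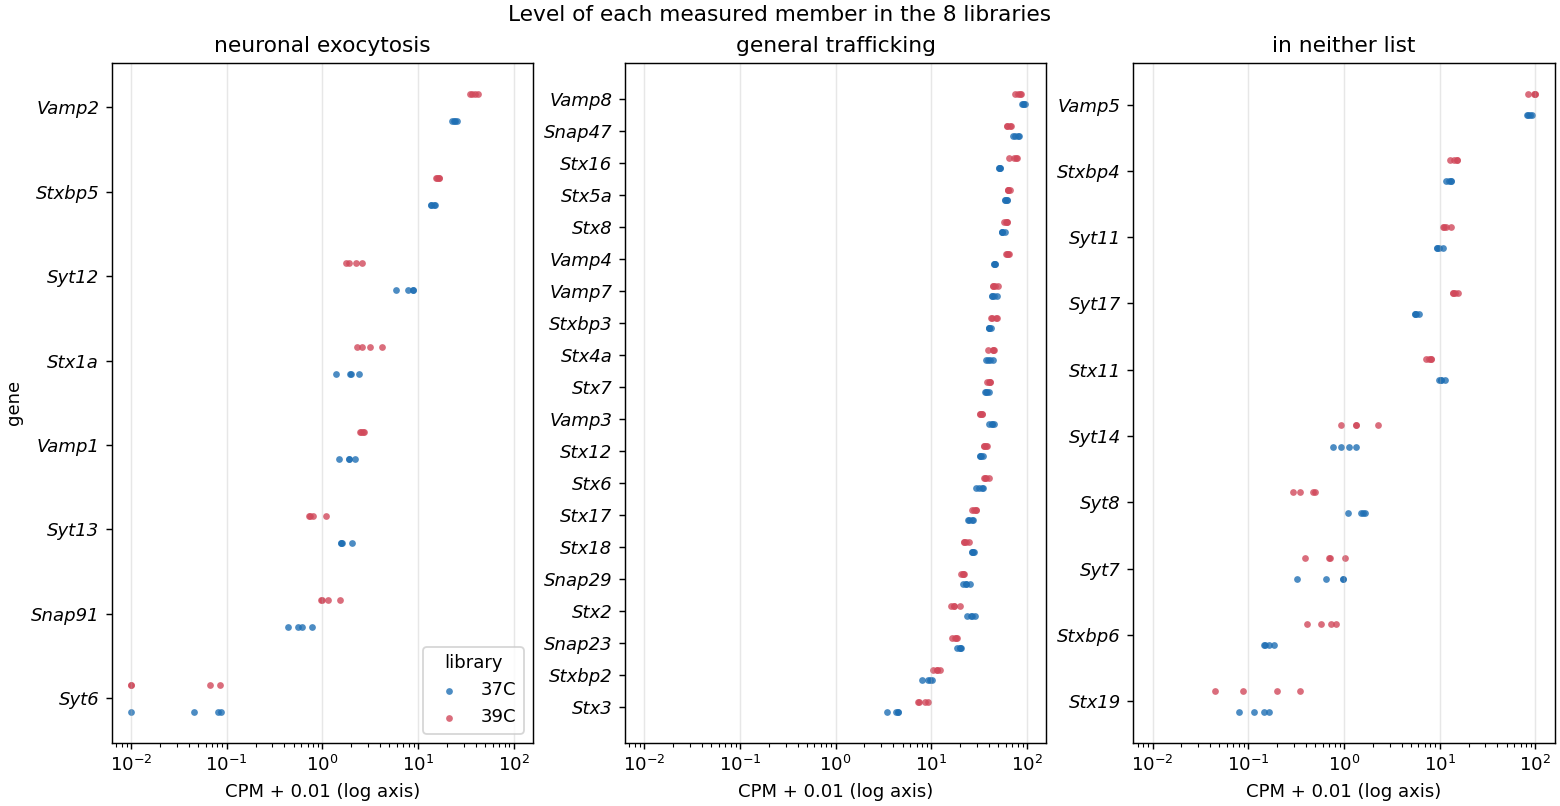
Level of the measured members reported here in each of the 8 libraries, as CPM plus 0.01 on a log axis, in panels by role and with genes ordered by mean level. Blue points are 37°C libraries and red points 39°C libraries. Most general trafficking genes sit between 10 and 100 CPM, while Vamp2 stands above the other neuronal genes drawn, and the temperatures are separate for Syt12, Syt17 and Syt8.

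Between temperatures, members of both lists moved in both directions. Vamp2 of the synaptic vesicle, the plasma membrane syntaxin Stx3 and the C2 domain gene Syt17 rose at 39°C, and Syt12, Syt13, Syt8 and Stx2 fell. With edgeR's quasi-likelihood test at an adjusted p under 0.05, 19 of 39 measured members were higher at 39°C and 11 lower in all cells, against 31.5% and 30.5% of all 15810 genes tested (62% in either direction). Of the 9 neuronal exocytosis genes measured, 5 were higher and 3 lower, with a median log2 fold change of 0.17. Of the 20 general trafficking genes, 9 were higher and 6 lower, with a median of 0.09, and over all genes tested the median was 0.02. The neuronal median moved to -0.03 when 37°C replicate 1 was left out and to 0.35 without 37°C replicate 2, and it rests on 9 genes. In sums over cells, fewer cells with a transcript and less RNA per cell cannot be told apart. Beside these counts, the summed level of mesenchymal markers was 2351 to 2404 plain CPM at 37°C and 1139 to 1161 at 39°C, and its part in the members' changes was not tested.

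In G1 cells alone, 38 members were tested and 9 were higher and 9 lower at 39°C, where 24.8% and 22.4% of 14712 genes passed in each direction (47.1% in either). All 18 had also passed in all cells, in the same direction, and 12 members passed in all cells only. Neuronal exocytosis genes gave 1 higher and 2 lower of 8 tested, with Vamp2 the one that was higher and Syt12 and Syt13 those that were lower. Without 37°C replicate 1 the count of lower neuronal genes was 1. General trafficking genes gave 5 higher and 5 lower of 20, with 3 higher without 39°C replicate 3. Median log2 fold changes were 0.01 for the neuronal list, -0.02 for the general list and 0.04 for all genes. The G1 sums at 37°C held 5352538 to 7430745 UMIs and were shallower than those of all cells. After each library was thinned to the total of its G1 cells, an alternative chosen after seeing the data, 3 neuronal genes were higher in all cells.

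**Figure D2:**
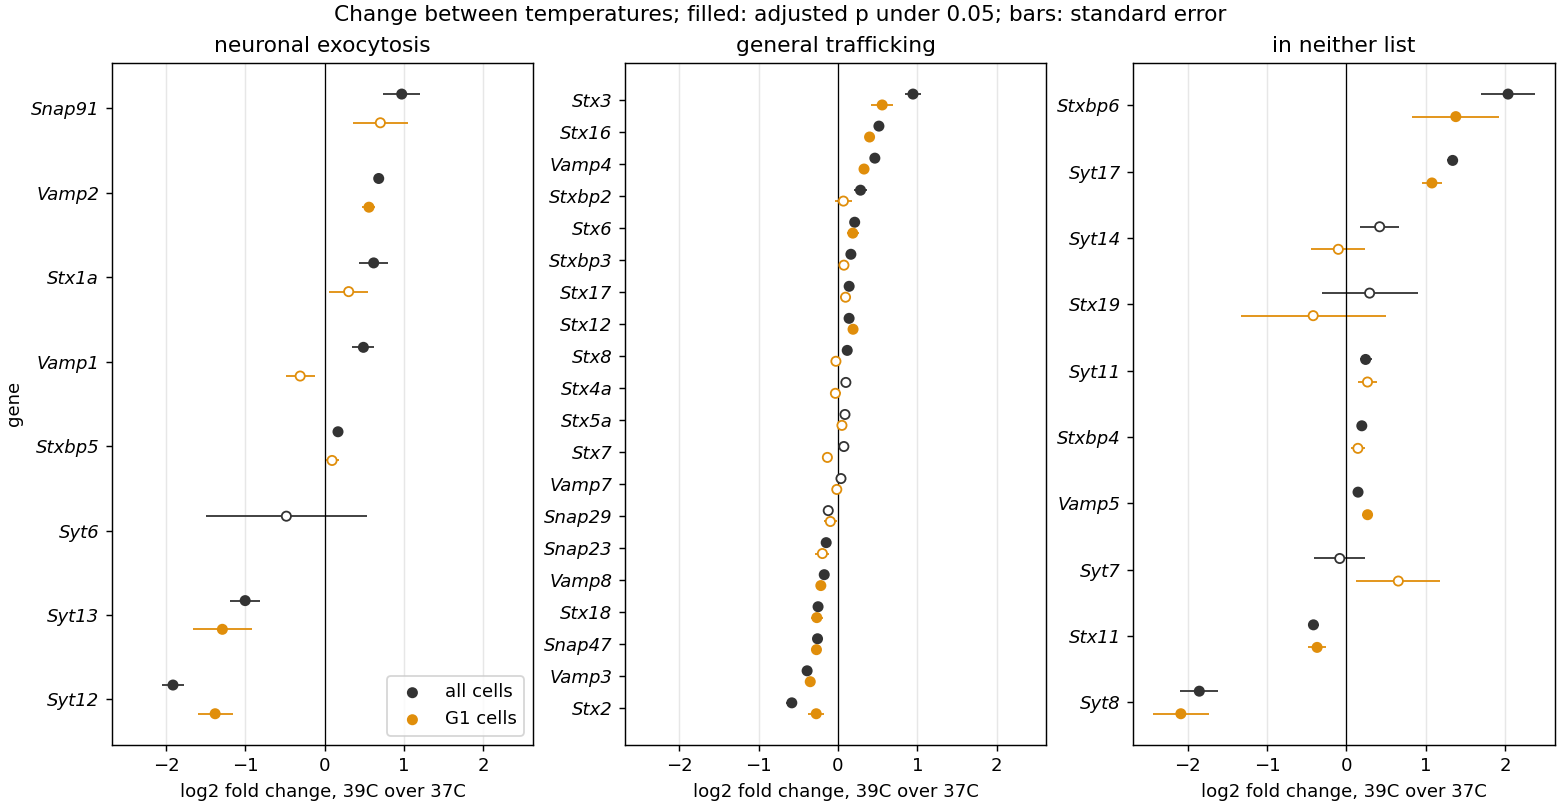
Log2 fold change of each measured member, 39°C over 37°C, with its standard error, in all kept cells (black) and in cells assigned to G1 (orange), in panels by role. Filled points have an adjusted p under 0.05. Vamp2, Syt17, Stx3, Stx16 and Vamp4 lie to the right of 0 and Syt12, Syt13, Syt8 and Vamp3 to the left in both sets, while Vamp1 is at 0.49 in all cells and -0.31 in G1 cells.

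Vamp2 (chr11:69088490-69092384), the vesicle SNARE of synapses that other secretory cells also use, was measured at 23.8, 22.3, 25.6 and 24.2 CPM in the 37°C libraries and 34.6, 39.6, 36.9 and 42.2 CPM in the 39°C libraries. Every 39°C library lay above every 37°C library. The log2 fold change was 0.68 ± 0.06 (SE, adjusted p = 9.52e-09), and in G1 cells it was 0.56 ± 0.08 (adjusted p = 5.95e-06). Its broadly expressed counterpart Vamp3 (chr4:151047300-151057963), which serves recycling endosomes, was at 39.8, 43.3, 43.2 and 45.0 CPM at 37°C and fell to 33.5, 32.0, 33.5 and 31.9 CPM at 39°C. Its groups did not overlap either, and its log2 fold change was -0.39 ± 0.05 (adjusted p = 1.09e-06) in all cells and -0.35 ± 0.06 (adjusted p = 3.05e-05) in G1 cells. Vamp3 lies within a stretch that the GENCODE M21 annotation also gives to Camta1 on the same strand, so its count may depend on how shared reads were assigned. Whole genes were compared here and not exons. Such an overlap was also found for the member Syt1 (with Gm5136) and for the partners Doc2g, Bet1l and Exoc2. Not overlapping between temperatures was common, at 23 of 39 members and 56.7% of all genes tested in all cells, and at 13 of 38 members and 44% of genes in G1 cells.

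The ratio of Vamp2 to Vamp3 UMIs within a library does not depend on the scaling of libraries. Its log2 value was between -0.95 and -0.75 in the 37°C libraries and between 0.04 and 0.40 in the 39°C libraries, so Vamp2 went from the rarer to the more abundant of the pair. The difference was 1.06, with a two-sided exact permutation p of 0.0286, the smallest that 4 against 4 libraries can give, and 0.0857 after adjustment over 6 pairs. For Stx1a over Stx4a, a plasma membrane syntaxin of most cells, the log2 ratio was -4.87 to -4.19 at 37°C and -4.28 to -3.42 at 39°C, and these ranges overlapped (difference 0.55, exact permutation p = 0.0857, adjusted 0.129). Neither passed the adjusted threshold. At the smallest p, a pair passes over 6 pairs only if most of the other pairs reach it too. Some of those have a neuronal gene with few UMIs. In the other 2 of the 4 pairs reported here the neuronal gene had fewer than 10 UMIs at a temperature and no ratio is given. Snap25 had 0 and 1 UMIs beside 2203 and 1740 of Snap23. Syt1 had 4 and 3 beside 80 and 66 of Syt7, itself a rare gene in these cells.

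**Figure D3:**
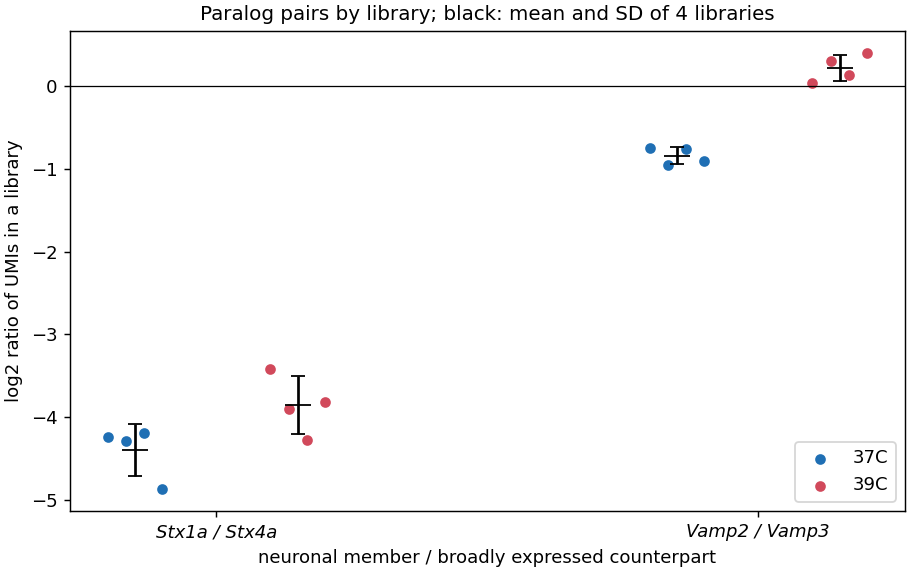
Log2 ratio of the UMIs of a neuronal member to those of its broadly expressed counterpart in each library, at 37°C (blue) and 39°C (red), with mean and SD of 4 libraries in black. The Vamp2 to Vamp3 ratio is under 0 in the 37°C libraries and over 0 in the 39°C libraries, and the Stx1a to Stx4a ranges overlap.

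Among the other neuronal genes, the syntaxin Stx1a (chr5:135023482-135051100) was measured at 1.95, 1.98, 2.38 and 1.37 CPM at 37°C and at 4.14, 2.61, 2.27 and 3.12 CPM at 39°C. One 39°C library lay within the range of the 37°C libraries. Its log2 fold change was 0.62 ± 0.18 (adjusted p = 0.00655) in all cells and 0.30 ± 0.25 (adjusted p = 0.34) in G1 cells. The vesicle SNARE Vamp1 rose from 1.86 ± 0.287 to 2.59 ± 0.124 CPM in all cells (log2 fold change 0.49, adjusted p = 0.00463). In G1 cells Vamp1 was at 3.23 ± 0.230 and 2.58 ± 0.180 CPM, a log2 fold change of the opposite sign, -0.31 (adjusted p = 0.188). Snap91, which matches the name rule but encodes a clathrin assembly protein of synapses and is no SNARE, went from 0.586 to 1.15 CPM (log2 fold change 0.97, adjusted p = 0.00127), with 0.70 ± 0.35 (adjusted p = 0.105) in G1 cells.

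The synaptotagmins that were detected were not the calcium sensors of fast release. Syt12 (chr19:4445908-4477447), a synaptotagmin known to lack calcium binding, was at 5.93, 7.87, 8.73 and 8.78 CPM at 37°C and 2.55, 1.74, 2.23 and 1.89 CPM at 39°C. The lowest 37°C library was over the highest 39°C library. It was 3.77-fold higher at 37°C, with a log2 fold change of -1.91 ± 0.14 (adjusted p = 6.37e-10), and in G1 cells it was -1.38 ± 0.22 (adjusted p = 1.53e-05). Syt13 (chr2:92915098-92956058) was at 2.02, 1.55, 1.54 and 1.58 CPM at 37°C and 0.738, 0.719, 0.779 and 1.08 CPM at 39°C, again without overlap, and was 2.01-fold higher at 37°C (adjusted p = 0.000128). In G1 cells Syt13 was -1.29 ± 0.37 (adjusted p = 0.0065) on 39 UMIs at 37°C and 54 at 39°C, and the libraries overlapped.

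Of the synaptotagmins in neither list, Syt17 (chr7:118380717-118448222) showed the largest rise among members with at least 2 CPM. Its levels were 6.07, 5.46, 5.57 and 5.65 CPM at 37°C and 13.9, 15.7, 13.6 and 14.5 CPM at 39°C. The ranges were far apart, with a 2.53-fold rise (log2 fold change 1.34 ± 0.07, adjusted p = 6.64e-12), and the log2 fold change in G1 cells was 1.08 ± 0.12 (adjusted p = 1.8e-07). Syt8 (chr7:142434850-142440396) was rare, at 1.51, 1.63, 1.09 and 1.58 CPM at 37°C and 0.340, 0.492, 0.283 and 0.463 CPM at 39°C. It fell without overlap by 1.85 on the log2 scale in all cells (adjusted p = 1.36e-06) and by 2.09 in G1 cells (adjusted p = 3.73e-05). Syt11, which has a known role in membrane traffic, was higher at 39°C by 0.24 on the log2 scale in all cells (adjusted p = 0.00967). In G1 cells Syt11 did not pass, at 0.27 ± 0.11 (adjusted p = 0.0598), and its libraries overlapped in both sets of cells. For Syt7, a sensor of slower exocytosis and lysosome fusion, the log2 fold change was -0.08 ± 0.32 (adjusted p = 0.845) on 80 and 66 UMIs.

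Under a stricter call, an adjusted p under 0.01 with a log2 fold change over 1.5 in size, 3 members were called in all cells, against 5.83% of all genes tested, and these were Syt12 and Syt8, which fell, and Stxbp6, which rose. Stxbp6 encodes amisyn, a protein that binds syntaxin complexes. It was at 0.137, 0.155, 0.175 and 0.140 CPM at 37°C and 0.397, 0.719, 0.566 and 0.810 CPM at 39°C, on 17 and 63 UMIs in all. The groups were separate, with a log2 fold change of 2.04 ± 0.35 (adjusted p = 3.77e-05), while in G1 cells only 6 UMIs were counted at 37°C and the change was 1.38 ± 0.55 (adjusted p = 0.0434). That G1 call was lost without any one of the 37°C libraries, without 39°C replicate 2 or without 39°C replicate 4, with an adjusted p of up to 0.108. In G1 cells 1 member passed the strict call, Syt8, against 2.54% of all genes.

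Among general trafficking genes the largest rise was that of Stx3 (chr19:11775118-11819403), a syntaxin of polarized secretion, from 4.28, 3.45, 4.45 and 4.49 CPM at 37°C to 8.51, 7.27, 7.47 and 9.14 CPM at 39°C. All 39°C libraries were above the 37°C ones, with a log2 fold change of 0.95 ± 0.10 (adjusted p = 1.33e-07) and 0.56 ± 0.14 in G1 cells (adjusted p = 0.00171). Stx16 (chr2:174076308-174099771), of the trans-Golgi network, was at 52.1, 51.7, 51.1 and 51.4 CPM at 37°C and 65.4, 73.0, 76.8 and 79.3 CPM at 39°C (log2 fold change 0.52 ± 0.05, adjusted p = 6.72e-08). Vamp4 (chr1:162570515-162599084), a vesicle SNARE of that compartment, was at 44.8, 46.2, 45.8 and 44.9 CPM and then 65.4, 60.7, 62.2 and 62.8 CPM (log2 fold change 0.46 ± 0.04, adjusted p = 1.73e-08). Neither gene's temperatures overlapped, and both passed in G1 cells, at 0.40 and 0.33. Stx6, also of the trans-Golgi network, was higher by 0.21 in all cells (adjusted p = 0.00347) and 0.19 in G1 cells (adjusted p = 0.0476).

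The largest fall of the general list was that of Stx2 (chr5:128984557-129008574), a plasma membrane syntaxin also known as epimorphin, from 23.5, 28.8, 25.9 and 26.7 CPM at 37°C to 20.1, 16.1, 17.1 and 17.2 CPM at 39°C. The groups did not overlap, and the log2 fold change was -0.58 ± 0.07 (adjusted p = 5.36e-07). In G1 cells the fall was smaller, at -0.27 ± 0.10 (adjusted p = 0.0283), with overlapping libraries, and the call was lost without 37°C replicate 2 (adjusted p = 0.173), 37°C replicate 3, 39°C replicate 2 or 39°C replicate 4. Snap47, a SNAP-25 relative of most cells, was lower at 39°C by 0.26 on the log2 scale in all cells (adjusted p = 0.000216) and by 0.27 in G1 cells (adjusted p = 0.000203). Stx18 of the endoplasmic reticulum fell by 0.25 (adjusted p = 0.000271), and Vamp8 fell by 0.17 (adjusted p = 0.00462). Stx11, known from immune cells and in neither list, fell by 0.41 in all cells (adjusted p = 5.8e-05). The Golgi syntaxin Stx5a, with a log2 fold change of 0.09 (adjusted p = 0.0904), Stx4a at 0.10 (adjusted p = 0.136), Stx7 at 0.07 (adjusted p = 0.186), Vamp7 at 0.04 (adjusted p = 0.543) and Snap29 at -0.12 (adjusted p = 0.063) did not pass. Stx5a passed with library totals only (0.12, adjusted p = 0.0216) and with totals thinned to those of G1 cells (0.13, adjusted p = 0.0479), and Stx4a passed without 39°C replicate 2 (0.14, adjusted p = 0.0389). Stx8 (0.12, adjusted p = 0.0304) and Vamp5 (0.15, adjusted p = 0.03) passed narrowly, and each lost its call without any one of 37°C replicates 1 to 3 or 39°C replicates 2 to 4, with adjusted p of up to 0.111 and 0.119. Neither passed with DESeq2 (adjusted p = 0.0892 and 0.0723). In G1 cells Stx8 was at -0.03 ± 0.06 (adjusted p = 0.753) and Vamp5 at 0.27 ± 0.07 (adjusted p = 0.00263).

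Cells assigned to G2M were compared with cells assigned to G1 of the same libraries. At 37°C, 11 of 38 members were lower in G2M cells and 3 higher, against 19.6% and 21.6% of 14378 genes tested (41.3% in either direction). Of the general trafficking genes 9 were lower and 1 higher, and of the 8 neuronal genes 2 were lower and 2 higher. The count of 11 was 5 without 37°C replicate 2, and the 14 called in either direction are a share near that of all genes. Vamp1 went from 3.25 ± 0.247 CPM in G1 cells to 1.69 ± 0.287 CPM in G2M cells (log2 fold change -0.95 ± 0.25, adjusted p = 0.00113). The log2 fold change was -0.78 for Stx1a (adjusted p = 0.0207), which did not pass without 37°C replicate 3 or 4, and -0.56 for Stx3 (adjusted p = 0.00646), which did not pass without 37°C replicate 2. Syt12 was higher in G2M cells, at 7.32 against 4.36 CPM (log2 fold change 0.73 ± 0.17, adjusted p = 0.000183), as was Stx2 by 0.41 (adjusted p = 1.52e-05). The share of cells assigned to G2M was 34.2 to 37.3% at 37°C and 2.94 to 5.35% at 39°C, and its part in the changes between temperatures was not tested beyond the values in G1 cells given above.

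At 39°C the G2M sums were small, at 449856 to 1483712 UMIs per library, and 7 members were lower in G2M cells and 1 higher, against 14.2% and 11.7% of genes (25.9% in either direction). Those lower were Snap23, Snap47, Vamp7, Stx8, Stx17, Stx6 and Stx16, all general trafficking genes. The rarer neuronal genes had few UMIs in these sums, which limited what could pass among them. One member differed in its phase change between temperatures, against 7.69% of genes in either direction, 2.46% with a higher and 5.22% with a lower value at 39°C. Snap23 (chr2:120567671-120601255), the plasma membrane SNAP of non-neuronal cells, was at 24.9, 18.8, 23.2 and 19.3 CPM in G1 cells and 20.6, 19.7, 18.7 and 19.0 CPM in G2M cells at 37°C. At 39°C it was at 19.0, 19.9, 17.4 and 19.6 CPM in G1 cells and 12.4, 7.81, 10.5 and 8.96 CPM in G2M cells. The phases overlapped at 37°C and were separate at 39°C, where the G2M values rest on 6 to 16 UMIs per library. The G2M change at 39°C less that at 37°C was -0.83 ± 0.23 on the log2 scale (adjusted p = 0.0092). It did not pass without 39°C replicate 2 (adjusted p = 0.078), without 39°C replicate 4 (adjusted p = 0.0614), or when each library was scored for phase by itself (-0.21, adjusted p = 0.346).

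**Figure D4:**
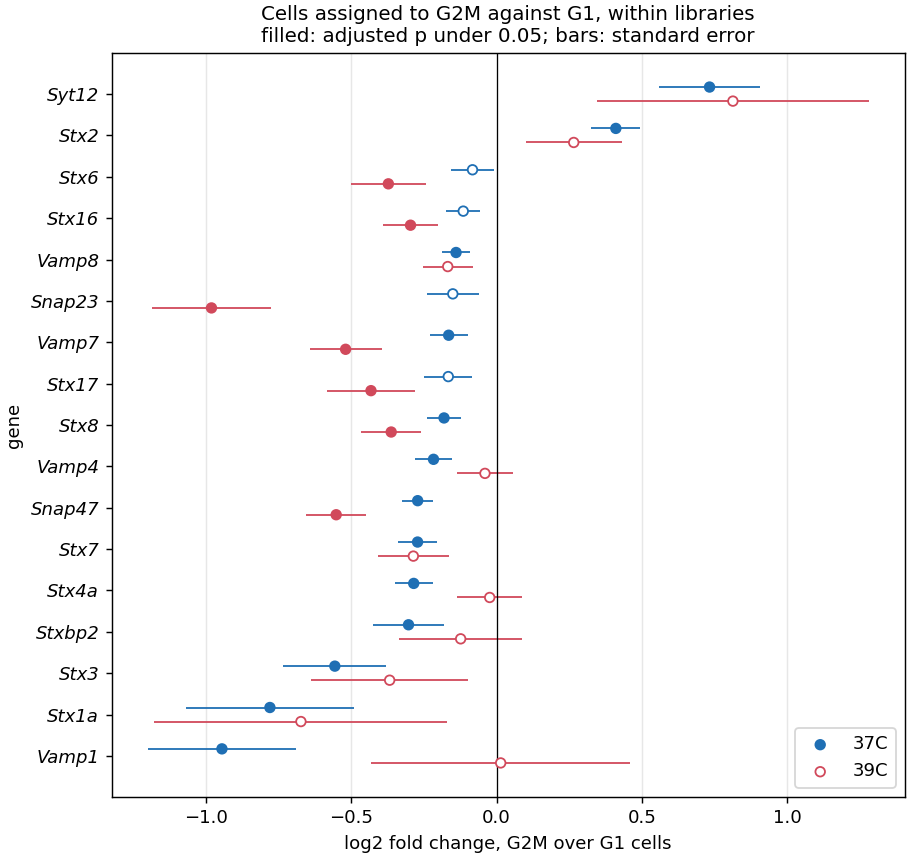
Log2 fold change of G2M over G1 cells of the same libraries, with its standard error, at 37°C (blue) and 39°C (red), for the members reported here that passed at either temperature. Filled points have an adjusted p under 0.05. Syt12 and Stx2 lie to the right of 0 and most other genes to the left, and Snap23 is at -0.15 at 37°C and -0.98 at 39°C.

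Genes of proteins that work with these members were examined in the same way. Of 47 presynaptic partners, such as complexins, Munc13 proteins, synapsins and vesicular transporters, 28 were measured, beside 15810 of all 31053 genes. Of the 28, 6 were higher and 7 lower at 39°C in all cells, against 31.5% and 30.5% of all genes. In G1 cells 3 were higher and 4 lower of 25 tested, against 24.8% and 22.4%. Doc2g, a C2 domain gene, rose from 2.16 ± 0.375 to 5.98 ± 0.769 CPM (log2 fold change 1.45) and Unc13c from 0.764 ± 0.101 to 1.83 ± 0.165 CPM (1.24). Syngr1, a vesicle membrane protein, fell from 15.2 ± 1.37 to 7.60 ± 0.580 CPM (-0.98), and the rare Slc17a6, a glutamate transporter, and Bsn, a scaffold of the active zone, had 41 and 19 UMIs at 37°C and 13 and 3 at 39°C. In G1 cells Doc2g (1.39), Unc13c (1.39) and Syngr1 (-0.66) passed. There Slc17a6, on 6 and 8 UMIs at 37°C and 39°C, did not pass (edgeR adjusted p = 0.182), and Bsn, on 4 and 2, was not tested.

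Of 46 general machinery partners, 44 were measured, with 21 higher and 9 lower in all cells, against the same 31.5% and 30.5% of all genes. The largest change was in Sytl1 (chr4:133253090-133263113), a synaptotagmin-like partner of Rab27, which went from 29.5 ± 2.87 to 96.6 ± 2.41 CPM (log2 fold change 1.71 ± 0.06), while the largest value of a measured synaptotagmin that rose was 1.34. Sytl2 (1.67, on 25 and 70 UMIs), Sec22c (0.77), Bet1l (0.68) and the exocyst subunit Exoc2 (0.66) also rose. In G1 cells Sytl2 did not pass, at 0.96 ± 0.56 (adjusted p = 0.167) with overlapping libraries, while the other 3 passed at 0.50 to 0.59. There 14 of these partners were higher and 9 lower, against 24.8% and 22.4% of all genes.

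Rest, the repressor that holds many neuronal genes silent outside neurons, averaged 116 ± 1.97 CPM in 37°C libraries and 155 ± 5.13 CPM in 39°C libraries (log2 fold change 0.42 ± 0.04). Of the 8 genes of its complex, Rest was the 1 that was higher, while Hdac1 (-0.61), Ehmt2 (-0.22), Sin3a (-0.19) and Hdac2 (-0.13) were lower, beside 31.5% of all genes higher and 30.5% lower. In G1 cells Rest (0.40), Hdac1 (-0.33) and Ehmt2 (-0.13) passed, and Sin3a (0.08, adjusted p = 0.461) and Hdac2 (0.08, adjusted p = 0.254) had the opposite sign and did not. Whether these levels bear on the undetected members was not tested.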

How the data were processed

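Per the labels and the methods, single-cell 3' libraries were prepared with the Chromium V3 kit, and the authors aligned reads to mm10 with Cell Ranger 3.0.1 and deposited whole-number UMI counts per gene and cell, with no normalization. Following the study's limits, kept cells had 200 to 6000 genes and at most 15% mitochondrial UMIs, and no doublet caller was run beyond the upper limit on genes. Phases were assigned with Seurat 5.3.0 (CellCycleScoring). Counts were summed per library over all kept cells, G1 cells or G2M cells, and genes averaging 1 count or more in a library entered edgeR 4.0.16 (R 4.3.3; TMM, glmQLFit, glmQLFTest, Benjamini-Hochberg). Temperature was the design, and G2M was compared with G1 with the library as a block. Ratios of pairs used a pseudocount of 0.5 and exact permutation. Standard errors are the fold change over the square root of F.

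Each fit was tested on simulated counts in which 200 genes had been shifted. Certain members are not reported here by name, though counts, medians, shares and the adjustment over 6 pairs include them. Positions are from GENCODE M21 and windows before start sites from RefSeq (GRCm38.p6). The members, lists and alternatives were chosen with earlier results of these data known. Named are the members of the pairs, those past the strict call, the 6 highest, the 5 largest rises and 5 largest falls of at least 2 CPM, those whose phase change differed between temperatures, those under the count minimum and up to 5 partners per list. Other members, the marker genes and the 4 windows printed were picked after their values were seen. At most 5 barcodes were shared by any pair of libraries, and no library was a copy of another, since chi-square over its degrees of freedom was 2.853 to 21.42 for pairs at the same temperature. Alternatives were other scaling, filters on counts and cells, DESeq2 1.42.0, thinned totals, other phase scoring, other lists, the replicate block and each library left out.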

Additional observations from a re-analysis of the deposited data

Results flagged for a closer look

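Among 40 groups of 4 libraries examined for named members, 2 had 1 library far from the other 3 in relation to the range of the group. These were Stx4a in 39°C replicate 2 at 39.2 CPM, where the other 39°C libraries were at 44.3 to 44.7 CPM, and Stx5a in 39°C replicate 3 at 66.2 CPM against 62.6 to 62.8 CPM. Chance flags about 1 in 20 such groups. Without 39°C replicate 2, Stx4a passed as higher at 39°C (adjusted p = 0.0389).

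The change of Snap23 between G1 and G2M cells differed between temperatures, by -0.83 on the log2 scale (adjusted p = 0.0092), on 6 to 16 UMIs per library in G2M cells at 39°C.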

How the results depend on the processing

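In all cells, the counts of members higher and lower at 39°C stayed within 1.5 times the reported ones under each alternative run, as did the count of all genes. The median of the neuronal list is the least stable value. It was 0.32 with filterByExpr, 0.29 with libraries thinned to the lowest total, 0.24 with libraries thinned to the total of their G1 cells (chosen after seeing the data; 3 neuronal genes higher), 0.243 with Syt7, Syt11, Stxbp6 and Syt17 counted as neuronal (8 higher), and -0.0331 to 0.355 with 1 library left out; without Vamp2, Stxbp5 and Syt12, 3 neuronal genes were higher. The general median was 0.125 with library totals only, 0.12 with the thinned totals and 0.0553 to 0.101 with 1 library left out. Syt7 changed sign, to 0.48 with the thinned totals and over -0.34 to 0.13 with 1 library left out.

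In G1 cells the neuronal median was 0.28 with the larger list (3 higher) and 0.32 with no filter on low counts. The smaller list gave 0 higher and 1 lower, filterByExpr gave 1 lower, and leaving out 1 library gave 1 to 2 lower. The general median was -0.0432 with DESeq2 (3 higher) and -0.0434 with its size factors, 0.00654 with updated phase lists, 0.0196 with each library scored by itself and -0.0290 to 0.00697 with 1 library left out, where 3 to 5 genes were higher. Scoring each library by itself also gave 2 neuronal genes higher, 584 strict calls against 374, Stx8 at 0.12 and Syt7 at -0.29, each of the opposite sign, and updated lists gave Stx8 at 0.00823. With 1 library left out Stx8 ranged from -0.0699 to 0.0310 and Stx4a from -0.0821 to 0.0200.

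The phase comparison at 39°C depended most on the scoring. With each library scored by itself, 2 members were higher and 4 lower, with 232 strict calls against 417, and Stx16 (0.0123), Stx3 (0.50, adjusted p = 0.00647), Stx4a (0.0332) and Vamp8 (0.00508) changed sign. For the difference between temperatures it gave 2296 genes and 74 strict calls, against 1105 and 39, with 3 members higher and 0 lower. Stx4a at 39°C was 0.0113 with DESeq2 size factors, 0.0219 with filterByExpr and -0.0914 to 0.0306 with 1 library left out. Leaving out 1 library gave 5 to 11 members lower at 37°C, 0 to 1 higher at 39°C and 0 to 2 lower for the difference. The cause of these changes was not tested.

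Same-numbered libraries had correlations of -0.12 to 0.29 and 1 of 4 correlated best with its own number, so they were not treated as paired. The replicate block gave 9617 genes in all cells and 6778 in G1 cells, with 19 members higher and 11 lower in all cells and 7 and 9 in G1 cells, where Stxbp6 lost its call (adjusted p = 0.0747). The paired exact test of the pair ratios gave an adjusted p of 0.3 for both differences, 0.55 and 1.06. The smallest p this test can give is 0.125, so it could not pass whatever the values, and nothing is drawn from it. Without the block of libraries the difference of phase changes gave 388 genes and 23 strict calls. Pair differences ranged from 0.39 to 0.69 for Stx1a over Stx4a and 1.00 to 1.12 for Vamp2 over Vamp3 with 1 library left out. Both passed without 39°C replicate 3, at an adjusted exact permutation p of 0.0429. That adjustment depends on the other pairs too, some with a neuronal gene of few UMIs. Members with few UMIs, such as Stxbp6, Syt7, Stx19 and Syt6, are limited by depth.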
